A study of Mus musculus with 8 samples.

Results

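The ADAM, ADAMTS and MMP metalloproteinases and their TIMP inhibitors were examined in lymphatic endothelial cells (LEC) and blood vascular endothelial cells (BEC) of the mouse colon. Members were all probe sets annotated to a single gene whose symbol was Adam, Adamts, Adamtsl, Mmp or Timp followed by a digit, or Adamdec1. The rule used names and no measured value. It gave 125 of the 45101 probe sets on the array, for 71 of 18193 named genes: 29 ADAM genes, 15 ADAMTS genes, 5 ADAMTS-like genes, 18 MMP genes (13 secreted and 5 held at the membrane) and 4 TIMP genes. Adamts13 and Mmp15 were not analysed here.

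Both cell types came from the same 4 C57BL/6J mice, 3 female and 1 male, aged 8 weeks, healthy and with no engineered allele or treatment named in the labels. Tissue was dissociated with collagenase IV and DNase I, and cells stained for CD31, podoplanin and CD45.2 were separated by flow cytometry. The 4 pairs had been selected by the quality of their RNA and amplified cDNA, per the series design. Amplified cDNA of each cell type and mouse was hybridised to an array of its own, which gave 4 LEC and 4 BEC arrays. Values are log2 signals as deposited, and differences are LEC minus BEC on that scale.

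Metalloproteinases of these families cut proteins outside the cell or at its surface with a zinc ion in the active site. MMPs, the matrix metalloproteinases, are made as inactive precursors and degrade collagens, laminins and other matrix proteins. ADAMs are membrane proteins that release the outer parts of receptors, adhesion molecules and growth factors, ADAMTS proteases are secreted and cleave proteoglycans, procollagens and von Willebrand factor, and ADAMTS-like proteins resemble them without the protease domain. TIMPs, the tissue inhibitors of metalloproteinases, block the active site, and in endothelium the balance of these proteins is known to bear on vessel sprouting, junctions and the basement membrane.

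The labelled cell types matched their markers. All 6 lymphatic markers measured, among them Prox1 and Lyve1, were called higher in LEC, all 8 blood vascular markers were called lower, and the 8 pan-endothelial markers lay above background on every array. All 8 of the latter had lower means in LEC, with a median difference of -0.94, and 2 (Cdh5 and Esam) were called lower. The background level of an array was the 95th percentile of its 27 control probe sets for bacterial transcripts, and lay between 3.43 and 4.88. Markers of other cells differed between arrays. The mean log2 signal of 12 fibroblast markers was 8.14 and 7.29 in LEC of mice 2 and 4, 3.95 and 5.09 in LEC of mice 1 and 3, and 3.88 to 4.05 in BEC. Their summed signal ran from 8.94 to 13.29 in LEC and from 8.52 to 8.86 in BEC (log2 of the sum), and 3 and 5 of the 12 lay above background on all LEC and all BEC arrays. The mean of 12 epithelial markers was 8.68, 10.15 and 7.71 in LEC of mouse 3 and BEC of mice 3 and 4, and 4.50 to 5.19 elsewhere. Markers of pericytes and smooth muscle were brighter in BEC by their sum. The summed signal of 10 ran from 7.17 to 8.41 in LEC and from 9.73 to 10.58 in BEC. Of these 10, 4 were above background on all BEC arrays and 0 on all LEC arrays. Their mean log2 signal was 2.42 to 4.16 in LEC and 4.17 to 5.21 in BEC, close to background. Of 6 tested 5 had a difference below 0, and only Rgs5 was called lower in LEC (3.53 ± 3.02 against 9.59 ± 0.50, SD, n = 4, adjusted p = 0.00849). The BEC mean of Rgs5 lay just below the range of the BEC sums. Cspg4 and Actg2 were each above background on 1 BEC array. The part of pericyte and smooth muscle RNA, or of epithelial RNA, in the members lower in LEC, Timp4, Adam15, Adamts9 and Adamts1, was not tested. LEC of mouse 1 stood apart over all genes, with a median Spearman correlation of 0.603 to the remaining LEC arrays, where those had 0.745 to 0.746. Without it Timp3 and Adam33 were no longer called, and the other 7 members named below as called were.

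Of the 71 member genes, 38 passed the filter on dim signals and were tested, and 9 of these were called, 6 higher and 3 lower in LEC. A gene was called at an adjusted p under 0.05 in a limma fit over 13259 genes, where 4.07% of all genes were called, 1.76% higher and 2.31% lower. That is 234 genes higher and 306 lower, a split that became 162 and 336 with equal array medians and 123 and 280 with equal hybridisation controls. Higher in LEC were the inhibitors Timp2 and Timp3, the membrane protease Mmp14, the ADAM genes Adamdec1 and Adam33, and Adamtsl1. Lower were Timp4, Adam15 and Adamts9. At Adamdec1, Adam33, Adamtsl1 and Adamts9 the brighter group alone sufficed to pass the filter, and the dimmer group exceeded its level on 2 of 4 arrays. This limits their adjusted p-values as support for a difference. In a fit without the filter these were 8.2e-04, 0.0430, 0.00516 and 0.0112. The median difference of the 38 was 0.23, and that of all genes tested was 0.08. The 4 values of LEC lay wholly apart from the 4 of BEC at 12 of the 38 genes, or 31.6%, and at 10.4% of all genes tested.

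The count depended on which arrays entered. Without LEC of mice 2 and 4, where fibroblast markers were high, Timp2, Adamdec1, Timp4 and Adamts9 were still called, 2 higher and 2 lower. Without the 3 arrays with high epithelial markers, Timp2, Mmp14 and Adamdec1 were still called, all higher, and 0 were called lower. These fits have fewer arrays, all 9 genes kept their direction in both, and both were chosen after seeing the data.

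**Figure D1:**
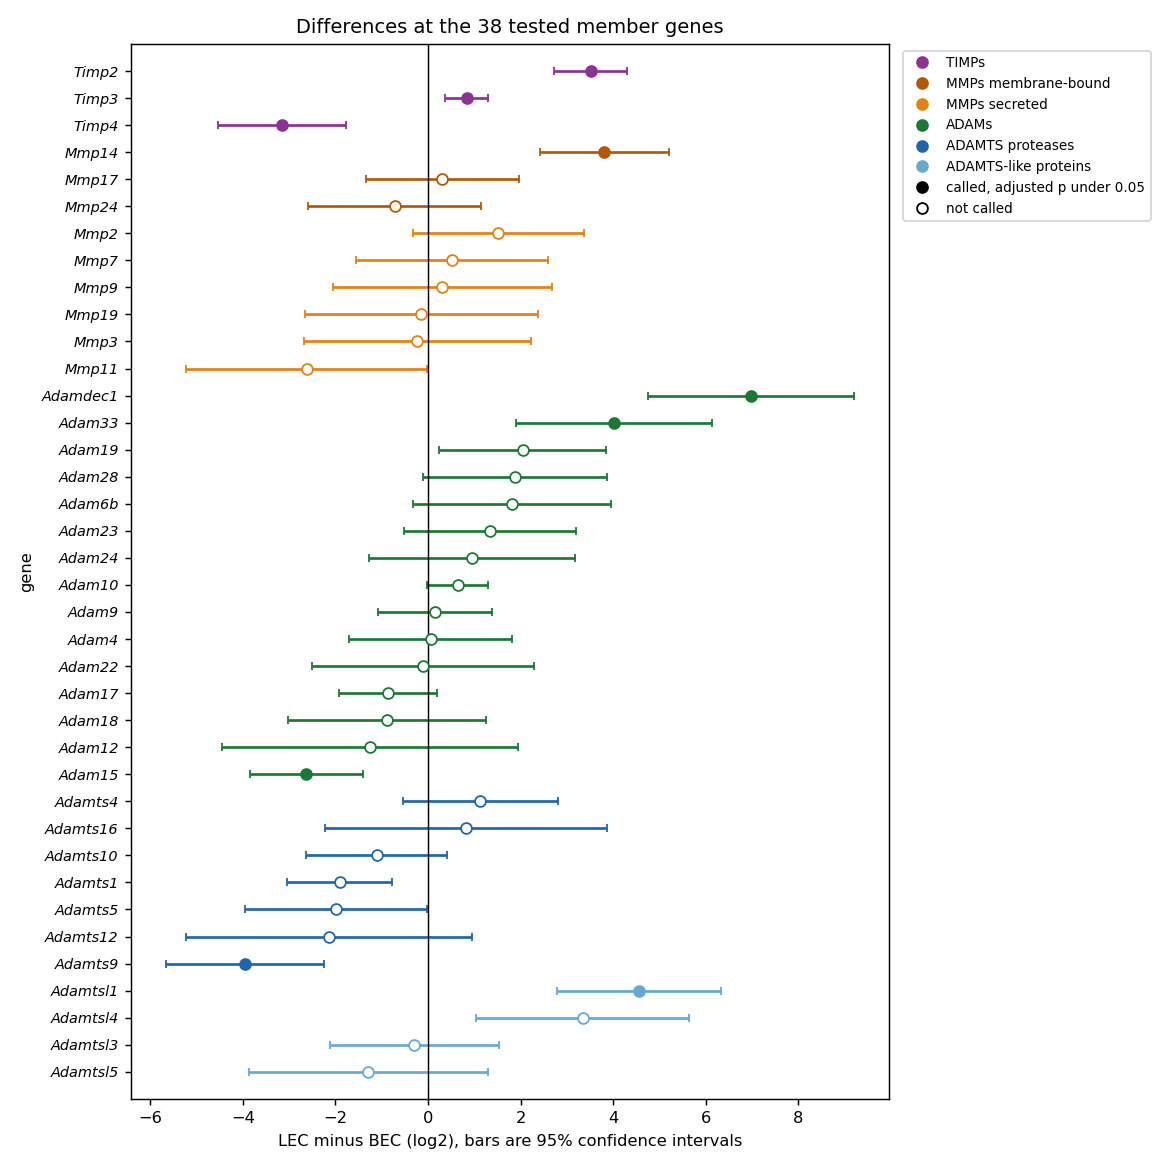
LEC minus BEC difference on the log2 scale (horizontal axis) for the 38 tested member genes, coloured by family, with 95% confidence intervals from the limma fit; filled points were called at an adjusted p under 0.05. The 6 filled points on the right are Timp2, Timp3, Mmp14, Adamdec1, Adam33 and Adamtsl1, and the 3 on the left are Timp4, Adam15 and Adamts9.

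Most members outside these groups were dim. The 33 genes that did not pass the filter lay above background on at most 3 of the 8 arrays, and 15 of them on none. Below background throughout were Adam2, Adam21, Adam25, Adam3, Adam32, Adam6a, Adam7, Adamts19, Adamts20, Adamts6, Mmp12, Mmp13, Mmp1a, Mmp1b and Mmp20. The others not tested were Adam11, Adam1a, Adam1b, Adam26a, Adam34, Adam5, Adam8, Adamts15, Adamts18, Adamts3, Adamts7, Adamts8, Adamtsl2, Mmp16, Mmp23, Mmp10, Mmp8 and Timp1. Above background on all 8 arrays were 11 members, namely Timp2, Timp3, Timp4, Adam9, Adam10, Adam15, Adam17, Adam19, Adamts1, Adamts4 and Adamts10. A probe set below background gives no order of level and was not read as absence of the transcript. In bulk samples such as these, fewer cells of a type and less RNA per cell cannot be told apart.

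**Figure D2:**
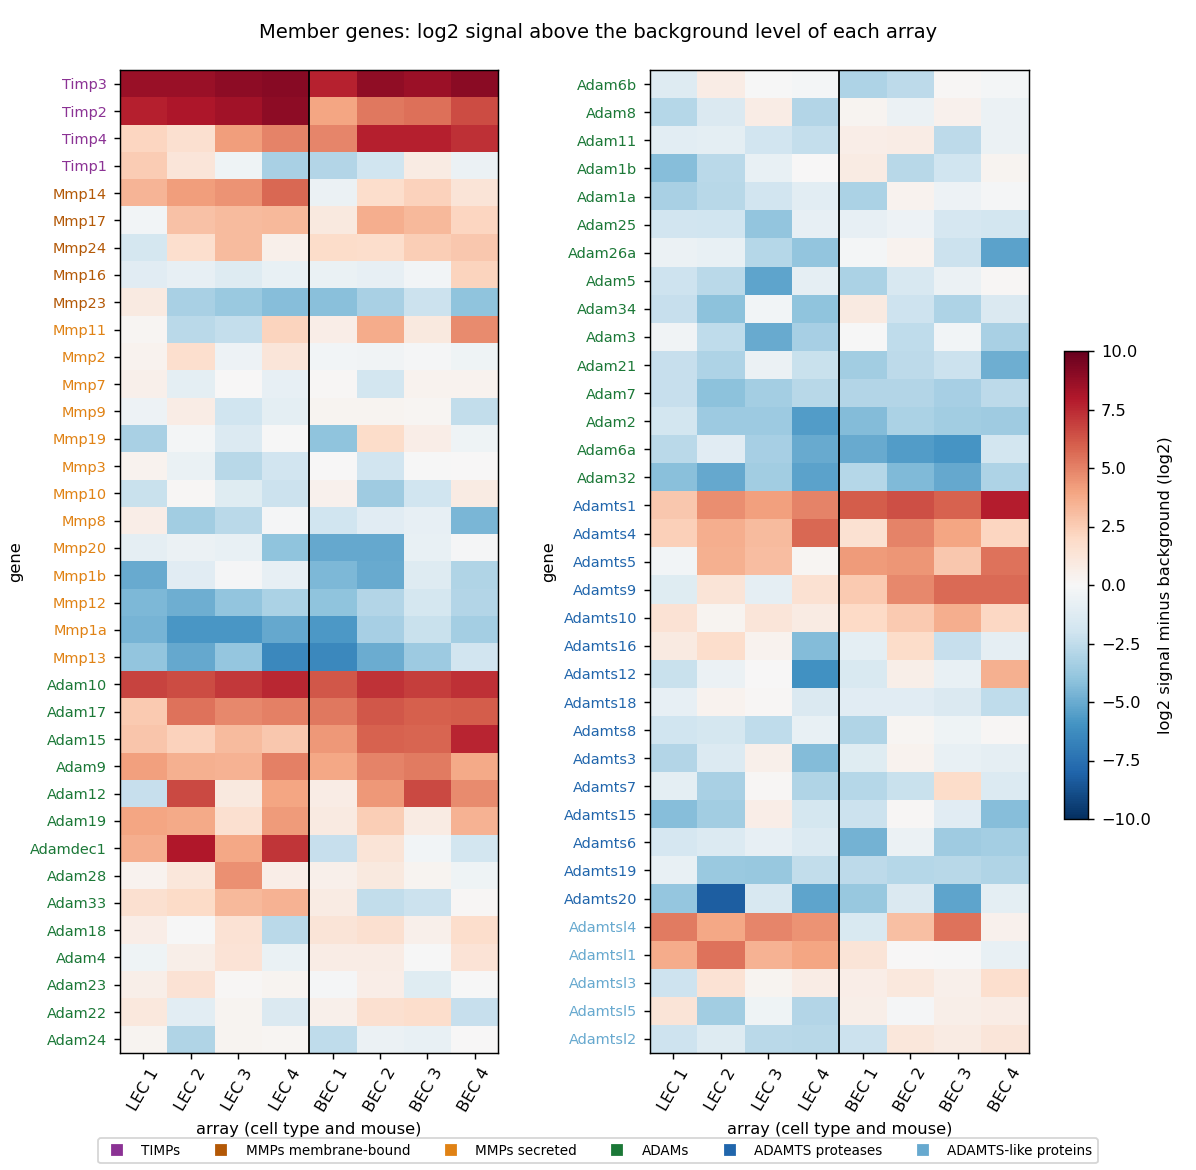
Log2 signal minus the background level of the same array (colour) for all 71 member genes (rows, gene names coloured by family) on the 8 arrays (columns, LEC left and BEC right of the line). Timp2, Timp3, Adam10 and Adam17 lie above background on every array, while 7 secreted MMP genes next to each other on chromosome 9 and most ADAM genes known from testis lie near or below it.

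The TIMP genes went in opposite directions. Timp2, whose product inhibits MMPs and also carries the precursor of MMP2 to MMP14, had log2 signals of 12.63, 12.39, 12.24 and 12.91 in LEC of mice 1 to 4 and of 8.50, 8.69, 8.95 and 9.98 in BEC. Every LEC array stood above every BEC array. The difference was 3.52 ± 0.36 (SE), an 11.4-fold higher signal in LEC (limma, adjusted p = 9.45e-05). Timp2 is represented by 6 probe sets, and all 6 were called higher in a fit over 23980 probe sets, with differences from 3.29 to 6.58 and adjusted p-values up to 0.00488. In that fit 3.7% of all probe sets were called, 1.61% higher and 2.09% lower.

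Timp4, an inhibitor with restricted tissue expression, ran the other way. Its signals were 7.00, 5.95, 8.00 and 8.94 in LEC and 9.43, 11.22, 11.18 and 10.70 in BEC. It was lower in LEC in each of the 4 mice, by 3.16 ± 0.64 or 8.95-fold (adjusted p = 0.0117), and was above background on all 8 arrays. A dimmer second probe set gave a difference of -2.22 and was not called (adjusted p = 0.495). The call was missed without BEC of mouse 2 (adjusted p = 0.0547), without the arrays with high epithelial markers (0.202), with the mean of the probe sets (0.119) and without the intensity trend (0.0571).

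Timp3, which binds to the extracellular matrix and also inhibits several ADAM and ADAMTS proteases, was bright in both cell types. Signals were 13.48, 12.98, 12.75 and 13.10 in LEC and 12.21, 12.31, 11.98 and 12.46 in BEC. The groups did not overlap, but the difference was only 0.84 ± 0.21, or 1.79-fold (adjusted p = 0.0436). Of 4 probe sets 2 were called, with differences from 0.84 to 1.27, and with the mouse as a block the other 2 were called too (adjusted p = 0.0451 and 0.0472). A difference of this size depended on scaling: it was 0.56 with equal array medians (adjusted p = 0.325), 0.58 with quantile normalization (0.172) and 0.45 with equal hybridisation controls (0.628). It was not called without the intensity trend (0.486) or the filter (0.0716) either. Leaving out any array but LEC of mouse 3 also ended its call, with adjusted p-values from 0.0615 to 0.125. Timp1, the inducible inhibitor, was too dim to be tested, with values of 7.39, 5.50, 3.37 and 0.75 in LEC and 1.61, 1.48, 4.21 and 2.88 in BEC that overlapped.

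**Figure D3:**
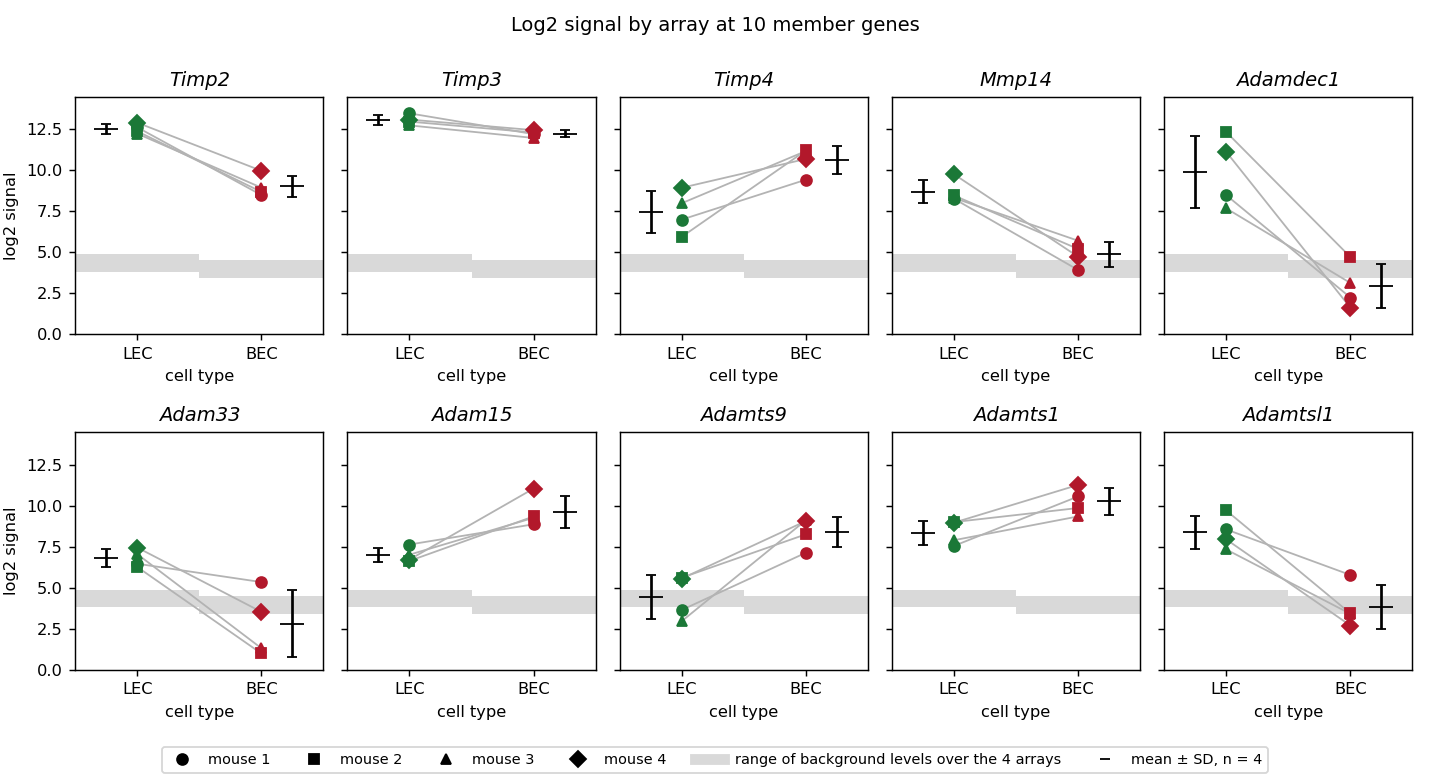
Log2 signal (vertical axis) on each LEC and BEC array for the 9 called members and Adamts1; grey lines join LEC and BEC of a mouse, black bars are the mean ± SD of 4 arrays and grey bands the range of background levels. LEC stand above BEC in every mouse for Timp2, Timp3, Mmp14, Adamdec1, Adam33 and Adamtsl1, and below for Timp4, Adam15, Adamts9 and Adamts1.

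The stretches before the start sites of Timp2 and Timp4 differ in composition, and they are shown because these inhibitors stood furthest apart within the family. The 250 bases upstream of Timp2 lie at chr11:118355412-118355661 on the minus strand of GRCm38.p6 and those of Timp4 at chr6:115252206-115252455 on the minus strand, both from RefSeq. Capitals mark matches on either strand to the letters of 4 motifs, which do not overlap each other in these windows. The AP-1 letters searched were TGANTCA. Those of the GC box were GGGCGG, a site of SP1-type factors. The TATA box was searched as TATAAA, and the core of ETS factor sites as CCGGAA.
Timp2: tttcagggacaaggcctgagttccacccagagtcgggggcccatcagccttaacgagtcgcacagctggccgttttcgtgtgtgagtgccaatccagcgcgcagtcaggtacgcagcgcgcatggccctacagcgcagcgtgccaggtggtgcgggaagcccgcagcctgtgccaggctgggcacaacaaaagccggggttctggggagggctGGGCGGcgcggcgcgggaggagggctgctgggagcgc
Timp4: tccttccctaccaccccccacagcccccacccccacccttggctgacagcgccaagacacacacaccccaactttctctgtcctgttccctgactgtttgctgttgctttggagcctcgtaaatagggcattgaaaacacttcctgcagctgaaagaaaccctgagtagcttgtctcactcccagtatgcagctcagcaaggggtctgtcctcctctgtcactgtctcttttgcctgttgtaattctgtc
The Timp2 window holds 68.0% G and C and a GC box, and the Timp4 window 53.6% and none of the 4 motifs. GC box letters occur in 32.7% of all 32851 promoter windows of this length, and a match is a description of the letters alone.

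Timp1, Timp3 and Timp4 each lie within the span of a synapsin gene in the RefSeq annotation of GRCm38.p6, Timp1 in Syn1, Timp3 in Syn3 and Timp4 in Syn2. Synapsins are proteins of synaptic vesicles. None of the 3 host genes was called (differences of -1.54, -1.71 and 0.07, adjusted p = 0.473, 0.413 and 0.986), so no called difference was seen at Syn2 beside that at Timp4 or at Syn3 beside that at Timp3.

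Mmp14 was the only MMP gene called. It encodes the membrane-type protease MT1-MMP, which cleaves fibrillar collagen and, with TIMP2, activates the precursor of MMP2. Its signals were 8.27, 8.47, 8.32 and 9.77 in LEC and 3.93, 5.21, 5.71 and 4.74 in BEC, where the array of mouse 1 lay below background. LEC were at least 12.7-fold higher (difference 3.81 ± 0.65, adjusted p = 0.00344), the bound being taken with values raised to the background of their array. The 3 probe sets gave differences from 2.54 to 4.49, and 1 of them was called. Without LEC of mice 2 and 4 the difference was 3.40 and its adjusted p 0.0692.

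MMP2, the gelatinase that MMP14 activates, was near background. Mmp2 had signals of 5.22, 5.99, 3.29 and 5.24 in LEC and 4.22, 3.12, 3.31 and 3.01 in BEC, above background on 3 LEC and 0 BEC arrays. The groups overlapped, and the difference of 1.52 had a 95% interval from -0.32 to 3.37 (adjusted p = 0.464). Mmp9, the other gelatinase, lay between 0.96 and 5.05 over the 8 arrays, with a difference of 0.31 (interval -2.05 to 2.67, adjusted p = 0.940). The sign of that value changed with the scaling. Among membrane-type MMPs, Mmp17 was 6.53 ± 1.29 in LEC and 6.22 ± 0.79 in BEC and Mmp24 5.16 ± 1.70 and 5.88 ± 0.49 (SD, n = 4), and neither was called (adjusted p = 0.911 and 0.783). Mmp11, stromelysin 3, had the largest difference of an MMP not called, -2.62 ± 1.21 (adjusted p = 0.342), with LEC values from 1.43 to 6.26.

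Secreted MMPs were mostly dim in these cells. Of 13 such genes 6 were tested, 0 were called in either direction, and 5 lay below background on every array. Their median difference was 0.08, as it was over all genes tested, and no secreted MMP was above background on all 8 arrays. In the RefSeq annotation of GRCm38.p6, Mmp13, Mmp12, Mmp1b, Mmp3, Mmp1a, Mmp10 and Mmp8 follow each other on chromosome 9 with no other protein-coding gene between them. This group holds collagenases, stromelysins and the macrophage elastase. Only Mmp3 of the 7 passed the filter, and 4 were below background on every array.

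The promoter windows of these MMPs and of Mmp14 differ in their letters. That of Mmp14 (chr14:54431348-54431597, plus strand) is shown beside that of Mmp13 (chr9:7272264-7272513, plus strand), a collagenase of the group on chromosome 9 that lay below background throughout. Capitals mark the same 4 motifs.
Mmp14: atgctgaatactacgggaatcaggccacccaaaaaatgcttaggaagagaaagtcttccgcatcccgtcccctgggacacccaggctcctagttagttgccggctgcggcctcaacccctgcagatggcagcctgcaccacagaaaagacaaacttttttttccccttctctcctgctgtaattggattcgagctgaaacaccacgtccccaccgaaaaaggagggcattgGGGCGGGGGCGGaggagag
Mmp13: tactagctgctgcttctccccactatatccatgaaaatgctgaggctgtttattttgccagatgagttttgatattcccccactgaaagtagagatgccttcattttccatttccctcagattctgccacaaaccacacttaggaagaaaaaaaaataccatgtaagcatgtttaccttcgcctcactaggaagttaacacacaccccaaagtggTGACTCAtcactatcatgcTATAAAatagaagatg
Mmp14 shows GC boxes alone and Mmp13 an AP-1 match followed by a TATA box. Over the 11 windows of MMP genes on chromosome 9, 72.7% held AP-1 letters, 63.6% a TATA box and 0 a GC box, against 6.75%, 12.4% and 32.7% of all 32851 windows. Of the 10 member genes with AP-1 letters in a window, 3 passed the filter and 0 were called. Of all 71 members 38 passed the filter and 9 were called. The windows with AP-1 letters include 8 of MMP genes on chromosome 9, and a link between these letters and signal was not tested. The 6 windows of called members held GC box letters in 5 cases and neither AP-1 nor TATA box letters. A missing match says only that these letters are not in this window, and 41 of the 71 members had a window in the table.

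Some MMPs, among them MMP14, and many ADAMs become active when proprotein convertases cut off their prodomain. Several other proteins hold MMPs and ADAMs in check. Of 20 listed genes for such activation and control 18 were tested, with 1 called higher and 0 lower in LEC and a median difference of -0.38. The called gene was Pcsk6, a proprotein convertase also known as PACE4, at 10.07 ± 0.71 in LEC and 4.97 ± 1.53 in BEC (SD, n = 4). This is a signal at least 31.3-fold above that of BEC (adjusted p = 0.00127). Furin, the convertase that is the usual activator of MMP14, was 8.09 ± 0.52 and 9.06 ± 0.23 and was not called (adjusted p = 0.362). Pcsk5 was 2.42 ± 2.45 and 6.18 ± 0.69 (adjusted p = 0.0909). Reck, a membrane-anchored MMP inhibitor, was 6.40 ± 0.60 and 5.75 ± 1.20, and the MMP inducer Bsg 9.67 ± 0.63 and 10.53 ± 0.45. In the plasminogen system, whose product plasmin can activate MMPs, 3 genes were tested and 0 called. Plau, the urokinase gene, had 10.01 ± 0.86 in LEC and 8.06 ± 0.84 in BEC (difference 1.96 ± 0.56, adjusted p = 0.0735, and 0.0279 with the mouse as a block), and Plat, tissue plasminogen activator, 5.48 ± 1.93 and 7.97 ± 0.71 (difference -2.49 ± 0.88, adjusted p = 0.178).

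Among ADAM genes 15 of 29 were tested, with 2 called higher and 1 lower in LEC. Adam15, an ADAM with an integrin-binding motif that is known from endothelial junctions, was lower. Its signals were 7.64, 6.64, 7.02 and 6.72 in LEC and 8.87, 9.35, 9.27 and 11.05 in BEC. The groups were apart in all mice, with a difference of -2.63 ± 0.57, a 6.21-fold lower signal in LEC (adjusted p = 0.0167). Without BEC of mouse 4 the adjusted p was 0.0657. It was 0.0525 without the intensity trend, 0.137 without LEC of mice 2 and 4 and 0.303 without the arrays with high epithelial markers.

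Probe sets of Adam15 did not agree in size. One of the other kept probe sets had all 4 LEC arrays below background and BEC signals from 7.79 to 8.87. It was at least 16.3-fold lower in LEC (difference -5.49, adjusted p = 0.00138). This probe set exceeded the filter level on 4 BEC arrays and 1 LEC array, so BEC alone sufficed to pass it. Its adjusted p is therefore no support for a difference. Another kept probe set ran from 5.60 to 6.18 in LEC and from 5.73 to 6.14 in BEC, with a difference of -0.17 (adjusted p = 0.944). The table does not say which transcripts each probe set detects. The 250 bases upstream of Adam15, at chr3:89350029-89350278 on the minus strand of GRCm38.p6, are shown because they alone among the windows of called members held ETS letters, here at 2 places beside a GC box (ETS letters occur in 12.0% of all windows and 4.35% of the 46 member windows). Capitals mark the same 4 motifs.
Adam15: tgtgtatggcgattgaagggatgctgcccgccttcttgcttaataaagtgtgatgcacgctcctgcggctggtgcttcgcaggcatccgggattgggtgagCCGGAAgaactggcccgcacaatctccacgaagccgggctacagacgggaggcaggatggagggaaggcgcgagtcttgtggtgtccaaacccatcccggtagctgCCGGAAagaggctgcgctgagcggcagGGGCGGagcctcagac

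**Figure D4:**
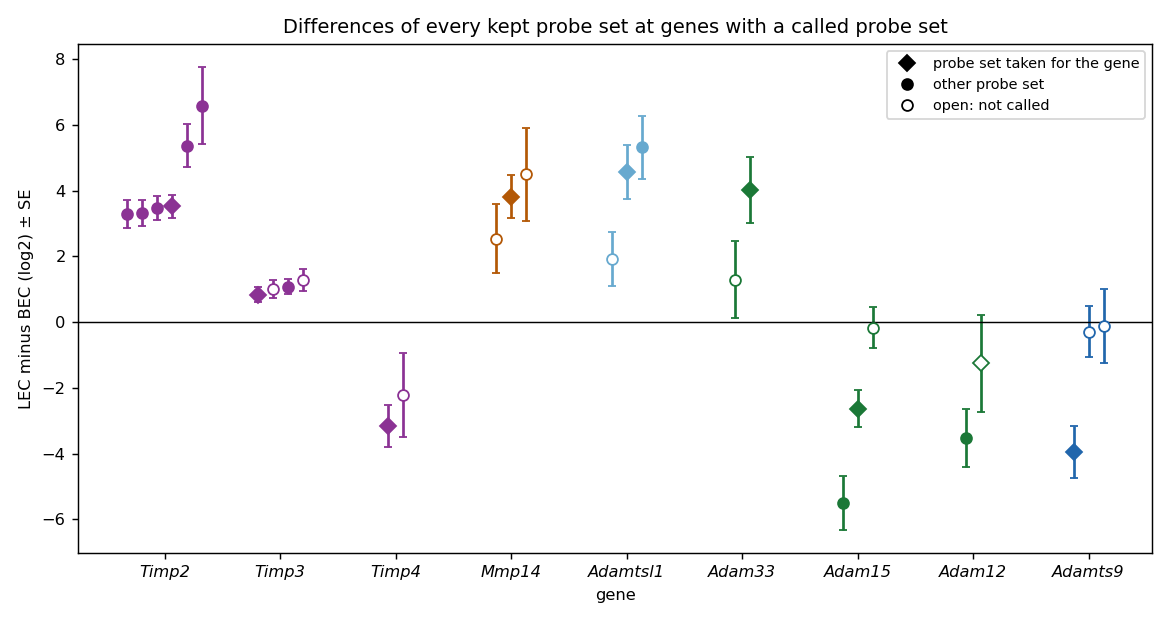
LEC minus BEC difference ± SE on the log2 scale for each kept probe set of the 9 member genes with several kept probe sets, at least 1 of them called; diamonds are the probe set taken for the gene, filled symbols were called in the fit over all probe sets. All 6 probe sets of Timp2 are filled, while those of Adam15 and Adamts9 range from near 0 to -5.49 and to -3.95.

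Adamdec1, a soluble ADAM-like protease known from the gut, had the largest difference of all members. Its signals were 8.50, 12.35, 7.69 and 11.14 in LEC and 2.25, 4.72, 3.14 and 1.63 in BEC, of which 1 BEC array lay above background. LEC were at least 59.4-fold higher (difference 6.98 ± 1.03, adjusted p = 0.00127). The brightest LEC arrays were those of mice 2 and 4, which also had the highest fibroblast marker means (8.14 and 7.29). In LEC of mouse 1 the fibroblast mean was 3.95, and Adamdec1 was 8.50. That mean lay within the range of BEC but below the background of its own array (4.88), so it gives no order of level. By the summed fibroblast signal no LEC array lay within the range of BEC, the lowest being 8.94 and the highest BEC array 8.86. Without LEC of mice 2 and 4 the difference was 5.16 (adjusted p = 0.0355). The neighbours of Adamdec1 on chromosome 14 are Adam7 and Adam28. Adam28 was 5.92 ± 1.67 in LEC and 4.03 ± 0.88 in BEC (adjusted p = 0.380), and Adam7 lay below background on every array.

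Adam33, an ADAM known from mesenchymal cells, was higher in LEC. Signals were 6.47, 6.27, 7.06 and 7.46 in LEC and 5.35, 0.99, 1.31 and 3.53 in BEC. The LEC values lay close together, and LEC were at least 7.35-fold higher (difference 4.02 ± 0.99, adjusted p = 0.0351). It was called under 6 of 19 alternative settings. The call was missed without any array but BEC of mouse 1 (adjusted p = 0.0586 to 0.110), and a second probe set gave 1.29 and was not called (adjusted p = 0.709).

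Adam12, an ADAM of muscle and mesenchymal cells, was uneven. The probe set taken for it had 2.59, 10.94, 4.79 and 7.92 in LEC and 5.25, 7.80, 10.03 and 8.18 in BEC, with groups that overlapped (difference -1.26, adjusted p = 0.779). Its other kept probe set was between 1.25 and 3.43 in LEC and between 5.22 and 6.81 in BEC, with all 4 LEC arrays below background. It passed the filter through the BEC arrays alone, so its adjusted p of 0.0434 is no support for a difference, and it was 0.0710 with the mouse as a block. The part of fibroblast RNA was not tested in the values of Adam12, of Mmp2 or of any member called higher in LEC, Adamdec1 and Mmp14 among them.

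**Figure D5:**
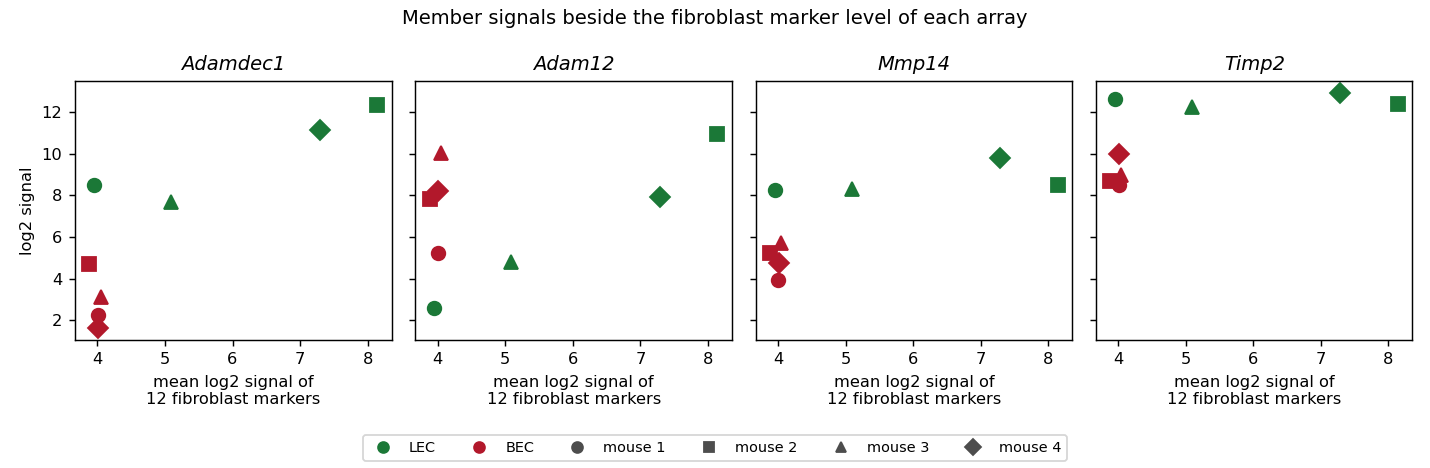
Log2 signal of Adamdec1, Adam12, Mmp14 and Timp2 (vertical axis) against the mean log2 signal of 12 fibroblast markers on the same array (horizontal axis), LEC in green and BEC in red, with a symbol for each mouse. Over the LEC arrays Timp2 lies between 12.24 and 12.91 and the fibroblast mean between 3.95 and 8.14. The mean of 3.95, in LEC of mouse 1, is below the background of that array (4.88) and gives no order of level. The part of fibroblast RNA in these values was not tested. The brightest LEC arrays for Adamdec1 and Adam12 are those of mice 2 and 4, with the highest fibroblast mean. For Mmp14 LEC of mouse 4 is brightest (9.77), and LEC of mice 1 to 3 lie between 8.27 and 8.47.

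The main sheddases were bright in both cell types and were not called. Adam10, which releases Notch and cadherin ectodomains, was 11.67, 10.87, 10.93 and 11.54 in LEC and 10.71, 10.66, 10.32 and 10.74 in BEC. LEC were above BEC on every array, but the difference of 0.64 had a 95% interval from -0.01 to 1.29 (adjusted p = 0.359). Adam17, the TNF-alpha converting enzyme, ran from 7.49 to 9.74 in LEC and from 9.42 to 9.76 in BEC (difference -0.86, interval -1.93 to 0.20, adjusted p = 0.475). Adam9 was 8.29 ± 0.86 and 8.14 ± 0.64 (SD, n = 4; difference 0.15, interval -1.09 to 1.38, adjusted p = 0.945). The intervals at Adam17 and Adam9 include differences in either direction. Adam19 was higher in LEC by 2.04 ± 0.84, a value that was not called (adjusted p = 0.270). The iRhom genes Rhbdf1 and Rhbdf2, whose products bring ADAM17 to the surface, gave differences of 0.00 and -0.84, and none of the 5 tested tetraspanin partners of ADAM10 was called.

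ADAM genes known mainly from testis were mostly near or below background. Of 16 such genes, grouped after seeing the data, 4 passed the filter (Adam4, Adam6b, Adam18 and Adam24) and 0 were called. As 4.07% of all genes tested were called, 0 of 4 says nothing about this group. None was above background on all 8 arrays and 7 were on none, while Adam18 was above it on 6 arrays and Adam4 on 5. Their highest value on any array was 5.77, at Adam18. The other 13 ADAM genes included 5 above background on all 8 arrays, and so were 5970 of the 13259 genes tested.

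Membrane proteins known to be shed by ADAMs or MMPs were mixed. Of 25 tested, 2 were higher and 4 lower in LEC, with a median difference of -0.52, and Tnfrsf1b, a TNF receptor, was a further gene lower with the mouse as a block (difference -2.05, adjusted p = 0.0457 against 0.0885 without). Kitl, the membrane-bound stem cell factor, was 29.9-fold lower in LEC (5.64 ± 1.35 against 10.54 ± 0.64, SD, n = 4; adjusted p = 7.44e-04). VE-cadherin (Cdh5), a substrate of ADAM10, was 2.27-fold lower at 11.30 ± 0.48 against 12.48 ± 0.21 (adjusted p = 0.0252), and the junctional molecule Jam3 at least 12.1-fold lower (adjusted p = 0.0164). Receptors of the Notch family, which ADAM10 cleaves after ligand binding, were divided, with Notch2 at least 31.5-fold higher (adjusted p = 0.00202), Notch4 at least 30.3-fold lower (adjusted p = 0.00269) and Notch1 not called (difference 0.52, adjusted p = 0.665). Lyve1, a hyaluronan receptor that can be shed, was the other gene higher in LEC (at least 246-fold, adjusted p = 7.02e-06). Lyve1 and Cdh5 are also among the lymphatic and pan-endothelial markers above, so their calls are not separate results.

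ADAMTS proteases contributed a single call. Of 15 genes 7 were tested, with 0 higher and 1 lower in LEC and a median difference of -1.91. Adamts9, which cleaves versican and aggrecan, was 3.65, 5.62, 2.96 and 5.56 in LEC and 7.14, 8.26, 9.12 and 9.07 in BEC. The lowest BEC array stood above the highest LEC array, and 2 of 4 LEC arrays were above background. LEC were at least 10.8-fold lower (difference -3.95 ± 0.79, adjusted p = 0.0109). Both other kept probe sets were dim and gave -0.13 and -0.29, so the mean over probe sets was not called (difference -1.46, adjusted p = 0.268). Without the arrays with high epithelial markers the difference was -2.76 (adjusted p = 0.315).

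Adamts1, a proteoglycan-cleaving protease known to be antiangiogenic, had the same direction. Signals were 7.55, 9.01, 7.90 and 8.97 in LEC and 10.57, 9.87, 9.35 and 11.28 in BEC. The groups did not overlap, and LEC were 3.75-fold lower (difference -1.91 ± 0.52), but the adjusted p of 0.0628 missed the threshold. It was 0.0343 with values raised to background and 0.0395 with the mean of the probe sets. Adamts1 has 1 probe set, above background on all 8 arrays, so its own values and difference were unchanged in both fits. Only the values of other genes differed there, so these are not further measurements of Adamts1. Without BEC of mouse 3 the adjusted p was 0.0497. Adamts5, its neighbour on chromosome 16 and an aggrecanase, was 5.91 ± 1.77 and 7.90 ± 1.29 (SD, n = 4; difference -1.99 ± 0.91, adjusted p = 0.341). Adamts4, another aggrecanase, was 7.98 ± 1.24 and 6.85 ± 1.27 (adjusted p = 0.575).

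The upstream window of Adamts9 (chr6:92943535-92943784, minus strand, GRCm38.p6) is given as that of the ADAMTS gene that was called. Capitals mark the same 4 motifs, here a GC box near the start site.
Adamts9: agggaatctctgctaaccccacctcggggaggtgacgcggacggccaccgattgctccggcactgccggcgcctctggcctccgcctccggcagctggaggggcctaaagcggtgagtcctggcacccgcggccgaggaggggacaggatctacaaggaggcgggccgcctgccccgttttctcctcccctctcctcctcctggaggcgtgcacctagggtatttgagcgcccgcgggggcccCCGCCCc
G and C made up 71.2% of these letters.

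Adamts3, which cleaves the precursor of the lymphatic growth factor VEGF-C, did not pass the filter. Its values were 1.93, 2.93, 4.31 and -0.34 in LEC and 3.29, 3.81, 2.69 and 2.51 in BEC, with 1 array of each above background. Its cofactor Ccbe1 averaged 5.75 ± 1.26 in LEC and 4.03 ± 0.72 in BEC (SD, n = 4; adjusted p = 0.374). Vegfc was below background on all LEC arrays and at 6.23 ± 1.13 in BEC, a difference of -2.55 ± 0.81 that was not called (adjusted p = 0.121). The single called gene of this list of 4 was Flt4, which encodes the main VEGF-C receptor, with a 5.11-fold higher signal in LEC (adjusted p = 9.47e-05). Flt4 is one of the lymphatic markers above, so its call is not a separate result.

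Among proteins that ADAMTS proteases cut or bind 18 were tested, with 2 called higher and 1 lower in LEC. The difference was above 0 at 16 of the 18, with a median of 1.44, where it was above 0 at 7055 of all 13259 genes, with a median of 0.08. Comp, cartilage oligomeric matrix protein, averaged 8.75 ± 0.86 in LEC and 4.40 ± 0.81 in BEC (SD, n = 4), 20.4-fold higher in LEC (adjusted p = 0.00205). Reln, reelin, exceeded its BEC signal by at least 319-fold (adjusted p = 1.38e-05), and Vwf, von Willebrand factor, at least 85.7-fold lower (adjusted p = 1.26e-04). The lymphatic markers above include Reln and the blood vascular markers include Vwf, so neither call is a separate result. Col1a1, Col1a2, Col3a1 and Dcn of the 18 are also among the fibroblast markers, whose mean was highest in LEC of mice 2 and 4. None of these 4 was called. Col3a1 was 8.99 ± 2.18 in LEC and 4.84 ± 1.99 in BEC (adjusted p = 0.0584). The part of fibroblast RNA in these values was not tested.

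ADAMTS-like proteins included Adamtsl1, also called punctin. Signals were 8.56, 9.72, 7.34 and 7.96 in LEC and 5.78, 3.44, 3.41 and 2.70 in BEC. All LEC arrays lay above background and above every BEC array. The mean LEC signal was at least 20.7-fold higher (difference 4.56 ± 0.82, adjusted p = 0.00509). Of its 3 probe sets 2 were called, with differences from 1.91 to 5.31. Without LEC of mice 2 and 4 the difference was 4.12 (adjusted p = 0.0788), and without the arrays with high epithelial markers it was 4.14 (adjusted p = 0.0788). Adamtsl4, a protein of fibrillin microfibrils, was 10.09, 8.15, 8.74 and 8.48 in LEC and 2.97, 6.43, 8.82 and 3.86 in BEC. BEC of mouse 3 lay within the LEC range, and the difference of 3.34 ± 1.07 was not called (adjusted p = 0.121). Adamtsl5 showed probe sets of opposite sign, -1.29 and 2.97, neither of them called (adjusted p = 0.723 and 0.258).

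Over all members, 72 of the 125 probe sets passed the filter, from 39 genes. Of these 13 were called higher and 5 lower, or 25%, where 1.61% and 2.09% of all probe sets were, and no gene had probe sets called in opposite directions. The 5 include that of Adam12, which passed the filter through BEC alone, and that of Adam15 with 1 LEC array over the filter level. At the genes not called, the differences of greatest size were those of Adamtsl4, Adam19, Adam28, Adam6b and Mmp2 towards LEC (3.34, 2.04, 1.88, 1.81 and 1.52) and of Mmp11, Adamts12, Adamts5, Adamts1 and Adamtsl5 towards BEC (-2.62, -2.14, -1.99, -1.91 and -1.29). Group means not given above were 7.67 ± 1.53 in LEC and 5.63 ± 1.08 in BEC at Adam19, and 4.06 ± 0.68 and 2.25 ± 1.32 at Adam6b (SD, n = 4). They were 3.61 ± 2.44 and 6.23 ± 1.73 at Mmp11, 2.05 ± 2.79 and 4.19 ± 1.97 at Adamts12, and 2.87 ± 2.52 and 4.16 ± 0.73 at Adamtsl5. At an unadjusted p under 0.05 there were 14 of the 38 genes, 8 higher and 6 lower, where 14.4% of all genes passed.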

How the data were processed

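RNA of 4 LEC and 4 BEC sorts was measured on 8 single-colour arrays. The authors deposited MAS5 signals as log2 values, per the submitters' processing notes and the file headers, with the version not given in the sources used here. Linear signals had a 2% trimmed mean of 100.04 on all 8 arrays, a scaling that sets total signal equal in both cell types. Nothing was rescaled for the results given here.

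Names came from the platform annotation of 2016. A gene was represented by its brightest probe set on average, which had to exceed the array's 40th percentile on 4 or more arrays. This left 13259 genes and 23980 probe sets, each fitted in limma 3.58.1 (R 4.3.3) with an intensity trend and cell type as the only term. Tests were two-sided, with Benjamini-Hochberg adjustment over the whole table, and the fit was tested on simulated data. Where the dimmer group had an array below background, ratios are given as "at least". P-values measure the spread between 4 mice and their amplifications. The brighter group alone can meet the filter: at Adamdec1, Adam33, Adamtsl1 and Adamts9 the dimmer group exceeded its level on 2 of 4 arrays. Their adjusted p-values are limited by this.

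LEC and BEC were paired by mouse, per the series design. Correlations of deviations from the group means were 0.142, 0.0776, 0.181 and 0.0510 for mice 1 to 4. The highest correlations with a different mouse were 0.0295, 0.0295, 0.0747 and 0.0747, so for mouse 4 an unmatched pair was closer.

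Named were all called members, the TIMPs and 10 members chosen by role, of which Adamts13 was not analysed here; of the others, the 5 largest differences each way, and the called genes of related lists. Further genes named were picked after their values were seen. Members, lists and tests were chosen with earlier results of these data known. Sequences are from RefSeq, GRCm38.p6; protein sequences were not used here.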

Additional observations from a re-analysis of the deposited data

Results flagged for a closer look

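Among the 28 groups of 4 arrays tested at the named members, 1 held a value far from the others, where chance flags about 1 in 20. Mmp14 in LEC of mouse 4 was 9.77, and the nearest of the other 3 LEC arrays was 8.47. Without that array Mmp14 was still called higher in LEC.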

How the results depend on the processing

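With the mouse as a replicate block, 6 members were higher and 3 lower, the same 9 genes. Member probe sets moved from 13 higher and 5 lower to 15 and 4 (2 of Timp3 gained, 1 of Adam12 lost), and related genes from 6 and 5 to 7 and 6 (Plau and Tnfrsf1b gained). Timp2 and Adamdec1 were called under all 17 planned and both added alternatives. Without each array in turn, counts higher and lower were 4 to 5 and 2 to 4 for members, 10 to 12 and 2 to 5 for member probe sets, 6 to 8 and 3 to 6 for related genes, and 156 to 227 and 180 to 329 for all genes. Without the intensity trend, 1 member gene and 3 member probe sets were lower. With equal hybridisation controls 123 of all genes were higher. Without LEC of mice 2 and 4, 2 members, 7 member probe sets and 88 of all genes were higher and 3 member probe sets lower. Without the arrays with high epithelial markers, 3 members, 7 member probe sets and 112 of all genes were higher, and 0 members, 0 member probe sets, 3 related genes and 104 of all genes lower. The difference at Mmp9, never called, turned to -0.039 with quantile normalization, -0.075 with equal hybridisation controls, -0.16 and -0.083 without the arrays with high fibroblast or epithelial markers, and ran from -0.46 to 0.89 without single arrays. Equal array medians and hybridisation controls moved the median difference of all genes from 0.08 to -0.20 and -0.31. Mmp2 and Mmp9 had no value under the stricter filter. Apart from the fits with fewer arrays, the causes were not tested. Background between 3.43 and 4.88 limits what can be said of dim members.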
